A study of Mus musculus with 35 samples.

Results

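The histone variant genes outside the histone clusters were followed in the RNA-seq of hematopoietic stem/progenitor cells (HSPCs) from WT and JMJD1B-/- mice. They were given as a list of 10 genes, H2afx, H2afy, H2afy2, H2afz, H2afv, H2afj, H3f3a, H3f3b, H1f0 and Cenpa, and were looked up by old or current symbol. Of the 10, 9 are among the 11982 gene names of the expression table, and H2afy2 was not analysed here. The rule that defines the list uses no measured value, but the list was drawn up with earlier results of these data known. All 9 passed the filter on low values (a mean of at least 0.5 RPKM over the 4 libraries) and were tested.

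JMJD1B, encoded by Kdm3b, is a JmjC domain demethylase of histone tails. The labels describe the 4 libraries as polyA RNA of bone marrow HSPCs, 2 from WT mice and 2 from JMJD1B-/- mice of the mixed strain 129P2xC57BL/6J. The knockout is a gene trap brought in through embryonic stem cells, without a tissue-specific driver, so the HSPCs and the cells around them carried it alike. Age-matched littermates of 20 to 40 weeks and of both sexes were used in the study, and the age and sex behind each library are not given in the labels. Nothing in the labels says whether a library came from 1 animal or from a pool, so the p-values measure the spread between these libraries.

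Values are RPKM, reads scaled to the length of the transcript and to the mapped reads of the library, so levels of different genes can be set side by side. The depth, estimated from the values themselves, was 6100000 reads in JMJD1B-/- replicate 1 and 17500000 to 24600000 reads in the other libraries. For JMJD1B-/- replicate 1 the estimate was ambiguous by a factor of 2, which was settled by the balance of even and odd read numbers. Kdm3b in JMJD1B-/- libraries was at 15.6% of its WT mean (limma adjusted p = 0.0314), in the direction of the labels. The HSPC markers did not stand at equal levels. Their summed level was 302.0 to 327.7 RPKM in WT and 191.9 to 230.9 RPKM in JMJD1B-/- libraries, and 6 of 10 (Flt3, Cd34, Mecom, Gata2, Meis1 and Cd48) fell at an unadjusted p under 0.05 in limma, as did 6.33% of all genes tested. That count was 2 without WT replicate 1, 2 without WT replicate 2, 2 in limma without a trend and 1 in a test of each gene on its own with equal variances (the gene-by-gene test). Ly6a (Sca-1) was under 1 RPKM in JMJD1B-/- replicate 2. Erythroid markers, which a progenitor fraction also holds, summed to 453.1 to 695.0 RPKM in WT and 1284 to 1848 RPKM in JMJD1B-/- libraries.

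Most histones are encoded in clusters of genes that are transcribed in S phase and whose mRNAs end in a stem-loop without a poly(A) tail. In these libraries the 67 cluster histone genes nonetheless summed to 62560 to 69190 RPKM in WT and 82710 to 109100 RPKM in JMJD1B-/- libraries, levels that go against the polyA label, and the part of library selection in any value was not tested. Variant histones are encoded by single genes elsewhere in the genome. Most of their mRNAs are polyadenylated and made throughout the cell cycle, and chaperones and remodelers place the proteins into chromatin apart from replication. H2AX carries the phosphorylation mark of DNA breaks. MacroH2A1 (H2afy) bears a large macro domain and is known in silent chromatin and on the inactive X chromosome. H2A.Z (H2afz and H2afv) flanks transcription start sites, H3.3 (H3f3a and H3f3b) is placed at active genes and at heterochromatic repeats, CENP-A (Cenpa) defines the centromere, H1.0 (H1f0) is a linker histone of cells that leave the cycle, and H2A.J is a replication-independent H2A.

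The stretches before the start sites of 3 genes are shown because these genes are the gene with the largest fold change among the 9, that of macroH2A1, and the pair that encodes H3.3 and differed in opposite directions. Each is the 250 bases before the RefSeq start of the gene in GRCm38.p6, read 5′ to 3′ on the strand of the gene. Capitals mark the CCAAT box (CCAAT or ATTGG), the TATA box (TATAAA) and the GC box (GGGCGG or CCGCCC), and adjoining or overlapping GC boxes run together.
H2afy, chr13:56135551-56135800, minus strand: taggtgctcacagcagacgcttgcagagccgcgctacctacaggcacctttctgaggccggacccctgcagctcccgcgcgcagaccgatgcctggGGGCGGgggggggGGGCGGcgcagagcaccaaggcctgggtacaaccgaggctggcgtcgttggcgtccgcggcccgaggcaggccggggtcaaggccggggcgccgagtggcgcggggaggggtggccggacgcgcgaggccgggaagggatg
H3f3a, chr1:180813606-180813855, minus strand: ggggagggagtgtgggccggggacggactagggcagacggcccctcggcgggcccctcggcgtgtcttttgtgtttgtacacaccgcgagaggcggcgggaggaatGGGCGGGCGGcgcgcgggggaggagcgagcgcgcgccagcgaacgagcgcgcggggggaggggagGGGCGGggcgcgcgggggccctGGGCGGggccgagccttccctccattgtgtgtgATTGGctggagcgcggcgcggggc
H3f3b, chr11:116024505-116024754, minus strand: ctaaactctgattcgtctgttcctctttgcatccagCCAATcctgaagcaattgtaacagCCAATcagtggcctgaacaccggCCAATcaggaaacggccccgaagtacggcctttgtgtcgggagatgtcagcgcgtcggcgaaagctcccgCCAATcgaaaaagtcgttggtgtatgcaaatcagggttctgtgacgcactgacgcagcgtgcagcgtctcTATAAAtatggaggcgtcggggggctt

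These sequences differ in composition. The H2afy stretch is 74.8% G and C and holds 29 CG pairs and 2 GC boxes, which begin 154 and 141 bases before the start, and no CCAAT or TATA box. H3f3a is at 77.2% G and C with 35 CG pairs, 4 GC boxes and 1 CCAAT box that begins 24 bases before the start. H3f3b is at 54.0% G and C with 19 CG pairs, 4 CCAAT boxes that begin 214, 190, 167 and 97 bases before the start, a TATA box at 27 bases, and no GC box. Of these motifs, the 2 genes of H3.3 have the CCAAT box in common.

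A RefSeq entry was matched for 9 of the 10 genes, H2afx being the other. Among these 9 stretches, the CCAAT box was in 6 (H2afz, H2afv, H2afj, H3f3a, H3f3b and Cenpa), against 33.8% of 32851 mouse promoter windows of the same length. The GC box was in 5 (H2afy, H2afz, H2afv, H2afj and H3f3a), against 32.7%, and the TATA box in H3f3b alone, against 12.4%. The cAMP response element (TGACGTCA) and E2F words (TTTCCCGC, TTTCGCGC, TTTGCCGC or TTTGGCGC) were in none of the 9, against 1.5% and 1.9%, and the CHR word (TTTGAA or TTCGAA) was in H2afv alone, against 17.1%. Both strands were searched, and a match is a match of letters. The 9 windows ranged from 48.8% to 77.2% G and C with 6 to 35 CG pairs, and the medians over all windows were 52.4% and 6.

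In WT HSPCs the variant genes fell into 2 ranges of level. H3f3b (366.1 ± 39.21 RPKM, SD, n = 2), H2afx (322.2 ± 40.82), H2afy (233.2 ± 11.19), H2afz (200.8 ± 25.34) and H3f3a (172.3 ± 1.195) each exceeded the WT mean of at least 98.1% of listed genes. Cenpa stood well below them at 37.68 ± 3.579 RPKM. H2afv, H1f0 and H2afj were lowest, at 17.67 ± 0.2842, 17.34 ± 2.577 and 16.64 ± 1.017 RPKM, and still exceeded 65.8% of listed genes or more. In this order the libraries of H3f3b and H2afx overlapped, and so did those of H2afv with H1f0 and of H1f0 with H2afj, so these neighbours did not differ beyond their spread.

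In JMJD1B-/- HSPCs the same ranges held with a changed order in the upper one. H2afx was at the top (427.1 ± 82.64 RPKM), followed by H3f3b (289.2 ± 9.022), H2afz (231.8 ± 41.81), H3f3a (218.5 ± 38.31) and H2afy (117.9 ± 30.83), so that H2afy went from rank 3 to rank 5. The libraries of H2afz and H3f3a overlapped, as did those of H2afj with H2afv and of H2afv with H1f0. The summed level of the 9 genes was 1358 and 1410 RPKM in WT and 1272 and 1494 RPKM in JMJD1B-/- libraries. Its genotype means, 1384 ± 36.39 and 1383 ± 157.1 RPKM, differed by less than the spread between libraries.

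**Figure D1:**
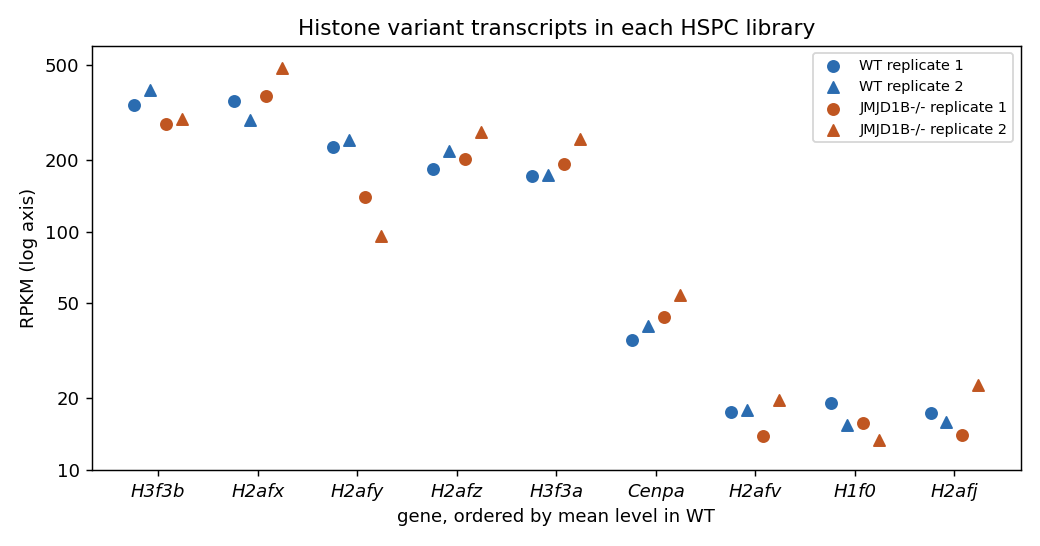
RPKM of the 9 histone variant genes in each library on a log axis, with genes ordered by their WT mean (circles replicate 1, triangles replicate 2, blue WT, orange JMJD1B-/-). H2afy is the gene whose JMJD1B-/- libraries, at 139.7 and 96.05 RPKM, lie farthest from its WT libraries, at 225.3 and 241.1 RPKM.

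Comparison of the genotypes asked whether loss of JMJD1B went with different levels of these mRNAs, using limma, a linear model that shares its estimate of the spread across genes. H2afy was the 1 gene of 9 past an unadjusted p of 0.05, and its level was lower. Over all 11863 genes tested, 10.1% passed that threshold, 6.33% with a lower and 3.81% with a higher level, so 1 of 9 is near the background. Under quantile normalization, which gives all libraries the same distribution of values, the split of passing genes over the whole table was 714 lower and 666 higher, against 751 and 452. None of the 9 passed an adjusted p of 0.05 in limma, which 0.0421% of all genes did, and none passed it in the gene-by-gene test. Leaving out JMJD1B-/- replicate 1, the shallow library, gave 4 of 9 past the unadjusted threshold (H2afy lower and H2afx, H3f3a and Cenpa higher), and in that setting 21.6% of all genes passed.

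For 5 of the 9 genes the ranges of the genotypes were apart, against 42.9% of all genes tested. Of these, H2afx, H3f3a and Cenpa were above WT in both JMJD1B-/- libraries (20.1% of all genes) and H2afy and H3f3b were below (22.7% of all genes). Without JMJD1B-/- replicate 1 the genotypes were apart for 9 of 9 genes and for 79.7% of all genes, with 1 JMJD1B-/- library left. The median log2 fold change of the 9 was 0.10, beside −0.02 over all genes and 0.44 over 67 histone genes of the clusters, and it was −0.13 without JMJD1B-/- replicate 2.

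**Figure D2:**
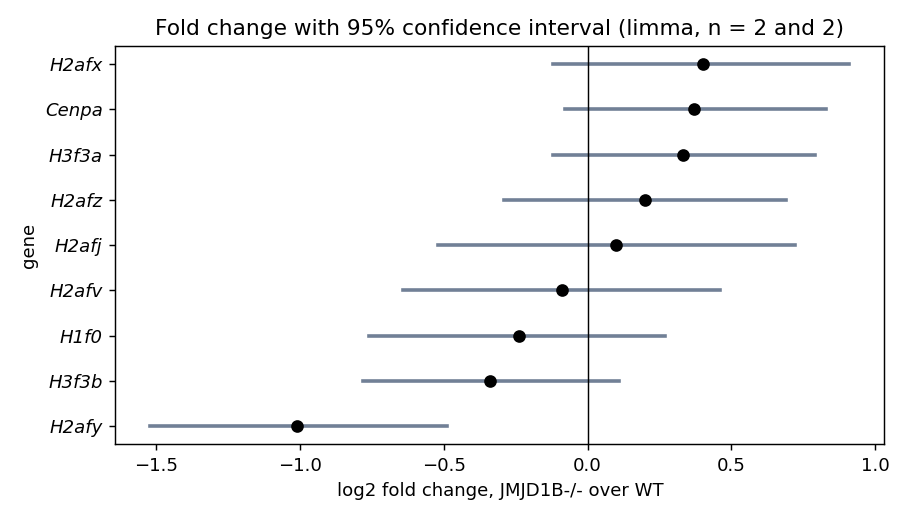
log2 fold change (JMJD1B-/- over WT, on log2(RPKM + 0.1)) of each variant gene as a point, with its 95% confidence interval from limma as a bar (n = 2 libraries per genotype). The interval of H2afy, −1.52 to −0.49, lies below 0, and those of the other 8 genes include 0.

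MacroH2A1 mRNA was lower in JMJD1B-/- HSPCs. H2afy was at 225.3 and 241.1 RPKM in the WT libraries, and at 139.7 and 96.05 RPKM in the JMJD1B-/- libraries. Both JMJD1B-/- libraries were thus below both WT libraries, and the JMJD1B-/- mean was 50.5% of WT. The log2 fold change was −1.01 (SE 0.22, limma adjusted p = 0.221). Over the processing alternatives it lay between −1.28 and −0.74, with adjusted p from 0.00371 (without JMJD1B-/- replicate 1) to 0.9998 (without WT replicate 1), and the gene-by-gene test did not pass it at an unadjusted p of 0.05. Counting error is small beside this, since the shallowest library still held an estimated 853 reads per kilobase of H2afy, a counting error of 3.42%. The higher of the JMJD1B-/- libraries exceeded the lower by 45.4%, and the higher of the WT libraries exceeded the lower by 7.03%.

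H2afy can also be given relative to the other variants of the same library, which restates its fold change and is no separate evidence of it. On the log2 scale, H2afy was 1.63 and 1.73 above the mean of the other 8 genes in WT, and 1.00 and 0.16 above it in JMJD1B-/- libraries, a difference of −1.10, and a common scaling of a library leaves this measure as it is. This measure was added after the values were seen. H2afy made up 16.6% and 17.1% of the summed RPKM of the 9 genes in WT, and 10.98% and 6.43% in JMJD1B-/- libraries. The JMJD1B-/- library with less H2afy, replicate 2, also had less Cd34 (11.74 RPKM, against 20.92 in replicate 1 and 42.85 and 43.55 in WT) and less Flt3 (3.368 RPKM, against 18.39 and 25.14 and 32.63), 2 surface proteins of immature and multipotent progenitors. Other HSPC markers lay the other way between these libraries, with Kit at 51.61 RPKM in replicate 1 and 92.71 RPKM in replicate 2, Gata2 at 28.39 and 46.9 RPKM and Meis1 at 24.08 and 37.44 RPKM, and the summed HSPC markers were at 191.9 RPKM in replicate 1 and 230.9 RPKM in replicate 2. Replicate 2 also held less of the summed monocyte and macrophage markers, at 18.93 RPKM against 59.92 RPKM in replicate 1 and 83.75 to 87.8 RPKM in WT. Without replicate 2, the log2 fold change of H2afy was −0.74. The part of these cell populations in the H2afy level was not tested. In bulk RNA, fewer cells of a type and less RNA per cell cannot be told apart.

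The 2 genes of H3.3, whose proteins are identical, differed from WT in opposite directions, neither past the threshold. H3f3a was at 171.4 and 173.1 RPKM in WT and at 191.4 and 245.6 RPKM in JMJD1B-/- libraries, a log2 difference of 0.33 (SE 0.19, limma adjusted p = 0.602). H3f3b was at 338.4 and 393.9 RPKM in WT and at 282.9 and 295.6 RPKM in JMJD1B-/- libraries, a log2 difference of −0.34 (SE 0.19, limma adjusted p = 0.588). The ranges of the genotypes were apart for each gene, with H3f3a higher and H3f3b lower in JMJD1B-/- libraries. H3f3a passed an unadjusted p of 0.05 with median-ratio scaling, which divides each library by its median ratio to the mean library (log2 difference 0.34), and H3f3b with quantile normalization (−0.56). The difference of H3f3a was 0.17 with quantile normalization and 0.15 without JMJD1B-/- replicate 2.

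H3f3a took a larger part of the H3.3 transcripts in both JMJD1B-/- libraries. It gave 33.6% and 30.5% of the H3.3 RPKM in WT libraries, and 40.4% and 45.4% in JMJD1B-/- libraries. The log2 ratio of H3f3a to H3f3b was −1.08 ± 0.14 in WT and −0.42 ± 0.21 in JMJD1B-/- libraries (SD, n = 2 each), a difference of 0.67. Leaving out each library in turn kept it between 0.52 and 0.82. The 2-sided exact permutation p was 0.333, the smallest that 2 against 2 libraries allow. The sum of both genes was 538.4 ± 40.4 RPKM in WT and 507.7 ± 47.33 RPKM in JMJD1B-/- libraries, less of a difference than the spread. H3.3 genes have processed pseudogenes in the mouse, and how reads with several matches were assigned is not given in the sources used here.

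**Figure D3:**
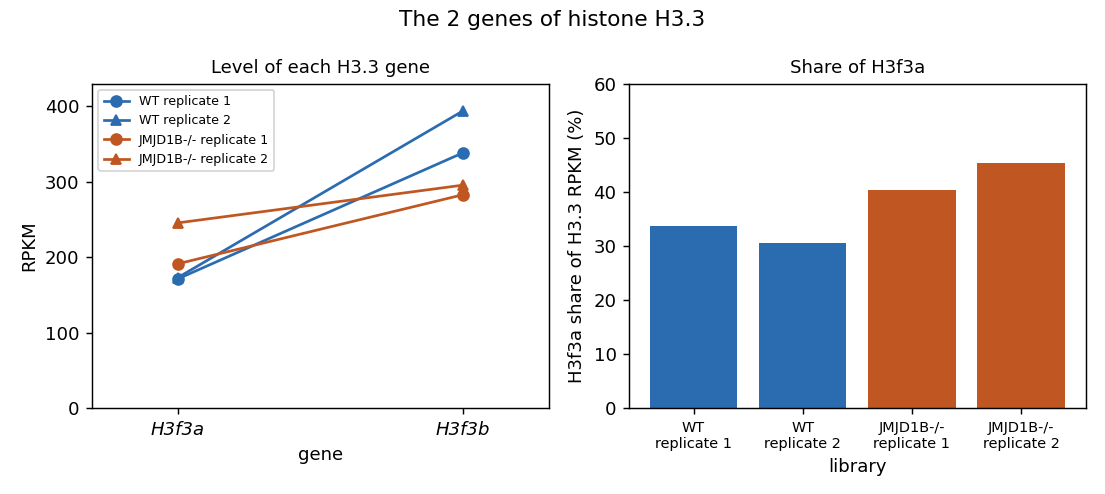
Left, RPKM of H3f3a and H3f3b in each library, with a line joining the genes of 1 library (blue WT, orange JMJD1B-/-, circles replicate 1, triangles replicate 2). Right, the share of H3f3a in the summed RPKM of both genes, which was 33.6% and 30.5% in WT and 40.4% and 45.4% in JMJD1B-/- libraries.

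H2A.Z transcripts came mostly from H2afz. H2afz had 182.9 and 218.7 RPKM in WT and 202.2 and 261.3 RPKM in JMJD1B-/- libraries, with a log2 difference of 0.20 (SE 0.21, limma adjusted p = 0.772) that ran from 0.02 to 0.39 over the alternatives. H2afv, the gene of the second H2A.Z protein, had 17.47 and 17.87 RPKM in WT and 13.91 and 19.77 RPKM in JMJD1B-/- libraries, with a log2 difference of −0.09 (SE 0.24, limma adjusted p = 0.924). The genotypes overlapped for both genes, and the sign of H2afv turned without JMJD1B-/- replicate 1 (0.16). H2afz stood 10.47- and 12.24-fold above H2afv in WT, and 14.54- and 13.22-fold above it in JMJD1B-/- libraries. That ratio was apart between the genotypes by 0.29 on the log2 scale (0.18 without WT replicate 1 and 0.41 without WT replicate 2), with a 2-sided exact permutation p = 0.333 at the limit of the design.

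H2afx, which encodes H2AX, was at 351.1 and 293.3 RPKM in WT and at 368.7 and 485.6 RPKM in JMJD1B-/- libraries. Both JMJD1B-/- libraries were higher, with replicate 1 near the higher WT library. The log2 difference was 0.40 (SE 0.22, limma adjusted p = 0.586), with an interval of −0.12 to 0.91, and it was 0.08 with quantile normalization and 0.20 without JMJD1B-/- replicate 2. H2afx has a further trait among variants, in that it yields both a stem-loop and a polyadenylated mRNA. The labels name polyA RNA for these libraries, but the levels of the cluster histones go against that label. The part of each form in the H2afx level was not tested.

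Cenpa was at 35.15 and 40.21 RPKM in WT and at 43.71 and 54.33 RPKM in JMJD1B-/- libraries. The JMJD1B-/- libraries were both higher, with a log2 difference of 0.37 (SE 0.20, limma adjusted p = 0.573). With median-ratio scaling the difference was 0.38 and passed an unadjusted p of 0.05, and without JMJD1B-/- replicate 2 it was 0.22 and did not. The summed level of 17 cell division genes moved beside it, from 922.4 to 1011 RPKM in WT to 1067 to 1103 RPKM in JMJD1B-/- libraries, and so did that of 16 DNA replication genes, from 879.2 to 1082 RPKM to 1141 to 1229 RPKM. The part of cycling cells in the Cenpa level was not tested.

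H1f0 and H2afj, at the low end, were not separated between the genotypes. H1f0 had 19.16 and 15.51 RPKM in WT and 15.74 and 13.44 RPKM in JMJD1B-/- libraries, with a log2 difference of −0.24 (SE 0.22, limma adjusted p = 0.738) that ran from −0.40 (without WT replicate 2) to −0.09 (without WT replicate 1). H2afj had 17.36 and 15.92 RPKM in WT and 14.07 and 22.67 RPKM in JMJD1B-/- libraries, with a log2 difference of 0.10 (SE 0.27, limma adjusted p = 0.924). The JMJD1B-/- libraries of H2afj lay on both sides of WT, and its sign turned without JMJD1B-/- replicate 2 (−0.24). At these levels the shallowest library held an estimated 86 reads per kilobase of H2afj, a counting error of 10.8%. The intervals, −0.76 to 0.27 for H1f0 and −0.52 to 0.72 for H2afj, leave room for differences of either sign.

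The genes that place, exchange and read these variants were described from lists. For H2A.Z exchange, which the SRCAP and TIP60-p400 remodelers carry out, 20 of 21 genes were tested, and 15 of the 20 had a negative log2 fold change, as did 6285 of all 11863 genes, with a median of −0.14 beside −0.02 for all genes. Of the 20, 1 passed an unadjusted p of 0.05, a share below the 10.1% of all genes. It was Brd8, a bromodomain subunit of TIP60-p400, which had 43.14 and 49.89 RPKM in WT and 33.72 and 35.42 RPKM in JMJD1B-/- libraries (log2 fold change −0.42, SE 0.18, limma adjusted p = 0.491). Leaving out each library moved the list's median between −0.29 and −0.01, and its count past the threshold in the lower direction between 0 and 5 (5 without JMJD1B-/- replicate 2). The gene-by-gene test passed 1 higher and 2 lower, and none passed with a pseudocount of 0.01.

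The machinery of H3.3, the HIRA and ATRX-DAXX chaperones among it, gave no gene past an unadjusted p of 0.05 in limma among 8 tested, with log2 fold changes from −0.31 to 0.28 and a median of 0.00. No gene passed either among 9 of replication-coupled H3-H4 assembly (median 0.23), 8 of CENP-A deposition and reading (−0.01), 12 of H2AX phosphorylation and reading (−0.03) and 7 chaperones of H2A-H2B and linker histones (0.11). In these 5 lists and that of H2A.Z exchange, no adjusted p was under 0.491. Some alternatives did pass genes at an unadjusted p of 0.05. The share of all genes that passed was 7.25% in the gene-by-gene test, 11.6% with median-ratio scaling or quantile normalization and 12.5% with the replicate block. In replication-coupled assembly these were 1 gene higher in the gene-by-gene test and with median-ratio scaling, 1 higher and 1 lower with quantile normalization and with the replicate block, 2 higher and 1 lower without JMJD1B-/- replicate 1, and 1 lower without WT replicate 1. In H3.3 deposition they were 1 lower with quantile normalization, 1 higher and 1 lower without JMJD1B-/- replicate 1, and 1 lower without JMJD1B-/- replicate 2. In CENP-A deposition and reading they were 1 lower with quantile normalization and 1 higher without JMJD1B-/- replicate 1, and in H2AX phosphorylation and reading 1 lower without JMJD1B-/- replicate 2.

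A further list held 15 histone genes of small clusters, of cluster edges or elsewhere that are not among the variants above. Of these, 5 were tested and 3 rose at an unadjusted p under 0.05, as did 3.81% of all genes, and their difference from the variant genes was not tested. Hist3h2a had 55.81 ± 6.539 RPKM in WT and 101.6 ± 1.995 RPKM in JMJD1B-/- libraries (log2 fold change 0.87, limma adjusted p = 0.203). Hist3h2ba, its neighbour in the small Hist3 cluster, had 5.054 ± 0.01229 and 22.05 ± 3.586 RPKM (2.09, limma adjusted p = 0.0560). Hist1h2aa, a testis H2A gene at an edge of the main cluster, had a log2 fold change of 4.81 (limma adjusted p = 0.00084). This list overlaps that of the 67 cluster genes, with Hist3h2ba and Hist1h2aa among the shared genes, so the counts of the lists are not independent. Of the 67 cluster genes, 11 rose and none fell at an unadjusted p under 0.05. That count was 33 without JMJD1B-/- replicate 1, 27 with median-ratio scaling, 7 with quantile normalization and 6 without WT replicate 2. The log2 fold changes of the 11 ran from Hist1h2bm (0.57), Hist1h2ba (0.60) and Hist1h2ag (0.64) up to Hist3h2ba, Hist3h2bb-ps (2.18) and Hist1h2aa.

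Among 17 cell division genes, 1 rose at an unadjusted p under 0.05, Ccna2 (cyclin A2), from 77.02 ± 10.3 to 103.4 ± 0.3292 RPKM (log2 fold change 0.43, limma adjusted p = 0.484). None of the 17 passed without WT replicate 1, without WT replicate 2 or in limma without a trend, and 2 passed without JMJD1B-/- replicate 2. Among 16 DNA replication genes 15 had a positive log2 fold change, with a median of 0.29. The 4 that rose at an unadjusted p under 0.05 were Rrm2 (0.81) and Rrm1 (0.48), subunits of ribonucleotide reductase, and Cdc6 (0.62) and Mcm5 (0.50), which license origins, with limma adjusted p from 0.320 to 0.477. Without WT replicate 1 none of the 16 passed, and the list's median was 0.06. The count was 2 without WT replicate 2 and without JMJD1B-/- replicate 2, and 1 in limma without a trend and in the gene-by-gene test.

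Markers of other blood cells differed beside the variant genes, and their part in any variant's level was not tested. The counts of this paragraph and of the cluster, division and replication lists stand beside 3.81% of all genes higher and 6.33% lower at an unadjusted p under 0.05. These shares hold for limma with all 4 libraries and the main settings, and they differ in the alternatives. Erythroid markers rose, 7 of 8 at an unadjusted p under 0.05 in limma, with log2 fold changes from 0.62 (Tfrc), 1.22 (Klf1) and 1.32 (Car1) to 1.98 (Hbb-b1), 2.12 (Alas2) and 2.26 (Hba-a1). Megakaryocyte markers summed to 556.4 to 613.8 RPKM in WT and 235.1 to 337.2 RPKM in JMJD1B-/- libraries, and 3 of 5 fell, Pf4 (−1.39), Ppbp (−1.04) and Itga2b (−0.64). Of 6 monocyte and macrophage markers, 4 fell, Ms4a6c (−2.07), Ly86 (−1.99), Csf1r (−1.80) and Irf8 (−1.50). Another 1 of the 6 had a positive log2 fold change (0.95), not past that threshold. Adgre1 and C1qa were not analysed here. Mature neutrophil markers summed to 7.239 to 19.07 RPKM in WT and 26.06 to 30.08 RPKM in JMJD1B-/- libraries, with S100a8 (0.70) and S100a9 (2.17) higher and with Ltf, Camp, Ngp and Cebpe under 1 RPKM in at least 1 library and Camp listed at 0 in 2 libraries. Among 7 T and NK cell markers, which summed to 24.02 to 31.66 RPKM in WT and 14.47 to 50.16 RPKM in JMJD1B-/- libraries, Cd3e (1.70) and Cd3g (3.03) rose and Nkg7 (−1.30) fell. The JMJD1B-/- libraries had unequal Cd3g, with 11.71 RPKM for replicate 1 against 1.661 RPKM for replicate 2. The median log2 fold change of the 7 markers was 0.31, and it was 1.39 without replicate 2 and −0.19 without replicate 1. The 1 B cell marker analysed, Cd79b, fell (−1.43) and was at 0.6306 to 1.224 RPKM in JMJD1B-/- libraries. Cd79b did not pass with quantile normalization, with the replicate block, or without WT replicate 1, WT replicate 2 or JMJD1B-/- replicate 2. In the gene-by-gene test, 1 megakaryocyte marker (lower) and 1 T and NK cell marker (lower) passed and no erythroid, neutrophil, monocyte or B cell marker did, and without WT replicate 1, 1 monocyte marker fell in limma.

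**Figure D4:**
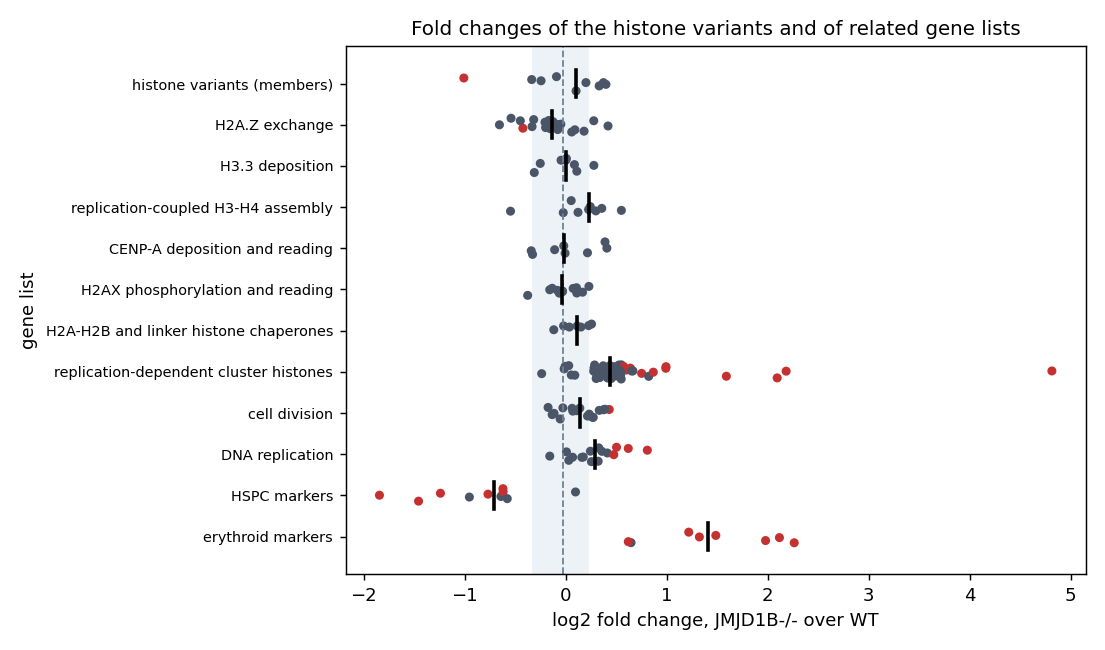
log2 fold change (JMJD1B-/- over WT) of each gene of the variant list, the lists of their machinery, cluster histones, division and replication genes and 2 marker lists; red points passed an unadjusted p of 0.05 in limma, black bars are medians, the dashed line is the median of all genes and the shaded band spans their quartiles, −0.33 to 0.22. The band shows the spread of single genes, not of medians. H2afy at −1.01 is the 1 red point among the variant genes, and the medians run from −0.71 for HSPC markers to 1.41 for erythroid markers.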

How the data were processed

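RNA of HSPCs, polyA RNA per the labels, was sequenced in 2 WT and 2 JMJD1B-/- libraries. The authors deposited 1 table of RPKM values, to which 1 had been added, and RPKM was computed here as the deposited value minus 1. The submitters' processing notes name TopHat2, Novoalign and the build mm9. The counting program and annotation are not given in the sources used here. The table has 12024 entries, and 42 names with more than 1 entry were averaged. No entry has its highest value under 2.0001, so genes under 1 RPKM throughout are not listed. Relative depth was estimated from genes under 3 RPKM whose ratios fall on whole numbers of reads, and 21 genes gave the absolute scale. The 31 other samples of the series, ChIP libraries, were not used here.

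The 11863 genes that averaged 0.5 RPKM or more were compared on the scale of log2(RPKM + 0.1), using the R package limma 3.58.1 (R 4.3.3, lmFit, then eBayes with a trend, two-sided), with Benjamini-Hochberg adjustment over all of them. The pseudocount shrinks the fold changes of low genes. Estimated reads per kilobase and their errors cover counting error only. On data simulated at these depths with an assumed dispersion of 0.05 and transcripts of 2 kb, 97.5% of 200 genes changed by 4-fold were called after adjustment. Smaller changes, such as those of the members, were not simulated. Other steps used Python 3.11.15, numpy 2.4.6, pandas 2.3.3, scipy 1.17.1 and matplotlib 3.10.9. Promoter windows came from RefSeq, GRCm38.p6.

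The members and the gene lists were chosen with earlier results of these data known. All members were named, and of each list the genes with an unadjusted p under 0.05 where there were at most 6, otherwise the 3 highest and 3 lowest of these. Alternatives were pseudocounts of 1 and 0.01, no filter, a mean of at least 1 RPKM, median-ratio scaling, quantile normalization, limma without a trend, a test per gene with equal variances (the gene-by-gene test), a replicate block, and leaving out each library.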

Additional observations from a re-analysis of the deposited data

How the results depend on the processing

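The count of variant genes past an unadjusted p of 0.05 was 1, and it was 3 with median-ratio scaling (H2afy, H3f3a, Cenpa), 2 with quantile normalization (H2afy, H3f3b), 0 with the gene-by-gene test, and 1 to 4 with each library left out, 4 being without JMJD1B-/- replicate 1. The lone library left in a genotype is then assumed to vary like the other pair. Over all genes tested, 11.6% passed with median-ratio scaling, 11.6% with quantile normalization and 7.25% with the gene-by-gene test. H2afy kept its direction throughout. Its adjusted p was under 0.05 with the replicate block and without JMJD1B-/- replicate 1. With each library left out, genes of the whole table past the threshold numbered 300 to 2567 (177 to 1819 lower, 123 to 1258 higher), non-overlapping variant genes 5 to 9, and the median log2 fold change of the variant genes ran from −0.131 to 0.386, turning sign without JMJD1B-/- replicate 2. H2afv ran from −0.34 to 0.16 and H2afj from −0.24 to 0.45. Without WT replicate 1 the genotypes were apart for 5 of 9 variant genes and 60.7% of all genes. These values were 7 and 66.6% without WT replicate 2, 9 and 79.7% without JMJD1B-/- replicate 1, and 7 and 78.6% without JMJD1B-/- replicate 2. The count of adjusted calls over the table was 5, and 0 to 669 over the alternatives. Libraries with the same number did not deviate together (correlation −0.0543, 2 pairs). The replicate block gave 256 adjusted calls over the table and 1485 genes past the unadjusted threshold, and the same 1 variant gene. Quantile normalization moved the cluster histone median from 0.44 to 0.07. A ratio of H2afy to H2afy2 was not run. The depth of JMJD1B-/- replicate 1 limits the low genes, with a counting error of 10.9% for H2afv there.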
